A study of Mus musculus with 12 samples.

Results

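Complement is a cascade of plasma proteins, their receptors and their inhibitors that tags material for removal by phagocytes. In the brain most of it is made locally. The complex C1q, which microglia produce, recognises altered surfaces and starts the classical pathway; C4 and C3 are then split and deposited, and the released peptides call cells through their own receptors. Microglia bind the deposited C3 fragments with complement receptor 3, and this route is known for the removal of synapses in development and around amyloid. The 9 genes described here cover those steps: C1qa, C1qb and C1qc encode the chains of C1q, C3 and C4b encode central components, C3ar1 and C5ar1 encode the receptors for the C3a and C5a peptides, and Itgam and Itgb2 encode the alpha and beta chains of complement receptor 3. They were chosen by gene symbol, through their mouse Ensembl identifiers, from 50563 genes in the count table, and all 9 were among the 15688 genes that passed the filter on low counts.

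The data were messenger RNA counts from the cortex of 12 E4FAD mice, which carry human APOE4 in place of the mouse Apoe gene on both alleles and the 5xFAD transgenes on 1 allele (genotype label APOE4+/+, 5FAD-/+). The 5xFAD transgenes drive mutant human amyloid precursor protein and presenilin from a neuronal promoter, so amyloid in these mice originates from neurons. Both groups carried the same alleles, and no mouse without the transgenes or without APOE4 was part of this comparison. The CTRL group was 7 mice that received vehicle by gavage, 2 of them 12 months old and 5 of them 14 months old. The DPAn-6 group was 5 mice, 2 of 12 months and 3 of 14 months, that received docosapentaenoic acid of the omega-6 series at 700 mg per kg of body weight daily for 3 weeks. The comparison asks whether this fatty acid alters gene expression in the aged cortex. Both sexes were used in each group, and the sex of single mice was not used here.

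Libraries held 15208803 to 26520251 counts, and the totals did not differ detectably between groups (exact permutation test, two-sided p = 0.222). Neuronal markers were high in every library, with a mean of 9.31 to 9.55 log2 CPM (counts scaled to library size) over 10 genes. No library duplicated another. CTRL replicate 3 stood apart, carrying 83.9% of the squared loading on the first principal component, and DPAn-6 replicate 5 was the deepest library. Choroid plexus genes were high in CTRL replicates 2, 3 and 5. Their reference gene Ttr, the thyroid hormone carrier, reached 7.44 to 10.6 log2 CPM in these 3 mice and 0.85 to 4.6 in the other libraries. The ribosomal RNA-derived transcript Gm42418 took 0.279% to 3.92% of counts. Its share was 0.401% to 0.81% in DPAn-6 libraries and 0.868% or more in every CTRL library except replicate 3 (0.279%).

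In the vehicle-treated cortex the 9 genes spanned a wide range of levels. On a scale of log2 CPM per kb of exon, C1qa was highest at 7.27 ± 0.27 (SD, n = 7), followed by C1qb at 6.86 ± 0.32, C1qc at 6.21 ± 0.36 and C4b at 5.1 ± 0.33. The beta chain gene Itgb2 came next with 2.87 ± 0.21. C3ar1 and Itgam were close to each other, at 1.67 ± 0.44 and 1.56 ± 0.41, and differed by less than their spread. C3 was at -0.09 ± 0.45 and C5ar1 at -1.71 ± 0.6. The C1q chains and C4b were therefore measured with 671 to 6161 counts in each library, whereas C3 had 35 to 123 counts and C5ar1 only 4 to 20. The levels of C5ar1 carry a large counting error for that reason.

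All 9 genes had lower mean levels in DPAn-6 mice than in CTRL mice. Of these, C1qb and C1qc fell, with adjusted p below 0.05 in edgeR's quasi-likelihood test (Benjamini-Hochberg adjustment over all genes tested), and no member rose. Across the 15688 genes, 8048 had a negative fold change, 1.14% were called lower and 0.408% were called higher. A further 4 members, C1qa, Itgb2, C3 and C5ar1, had an unadjusted p below 0.05 with lower levels in DPAn-6 mice, so that 6 of 9 members passed this weaker threshold, against 9.02% of all genes tested in that direction. The median log2 fold change of the 9 members was -0.46, and that of all genes tested was -0.0047. In none of the 9 genes did every DPAn-6 mouse lie below every CTRL mouse, a separation seen in 1.8% of all genes. Because the tissue was cortex as a whole, fewer microglia and less RNA per microglial cell cannot be told apart.

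**Figure D1:**
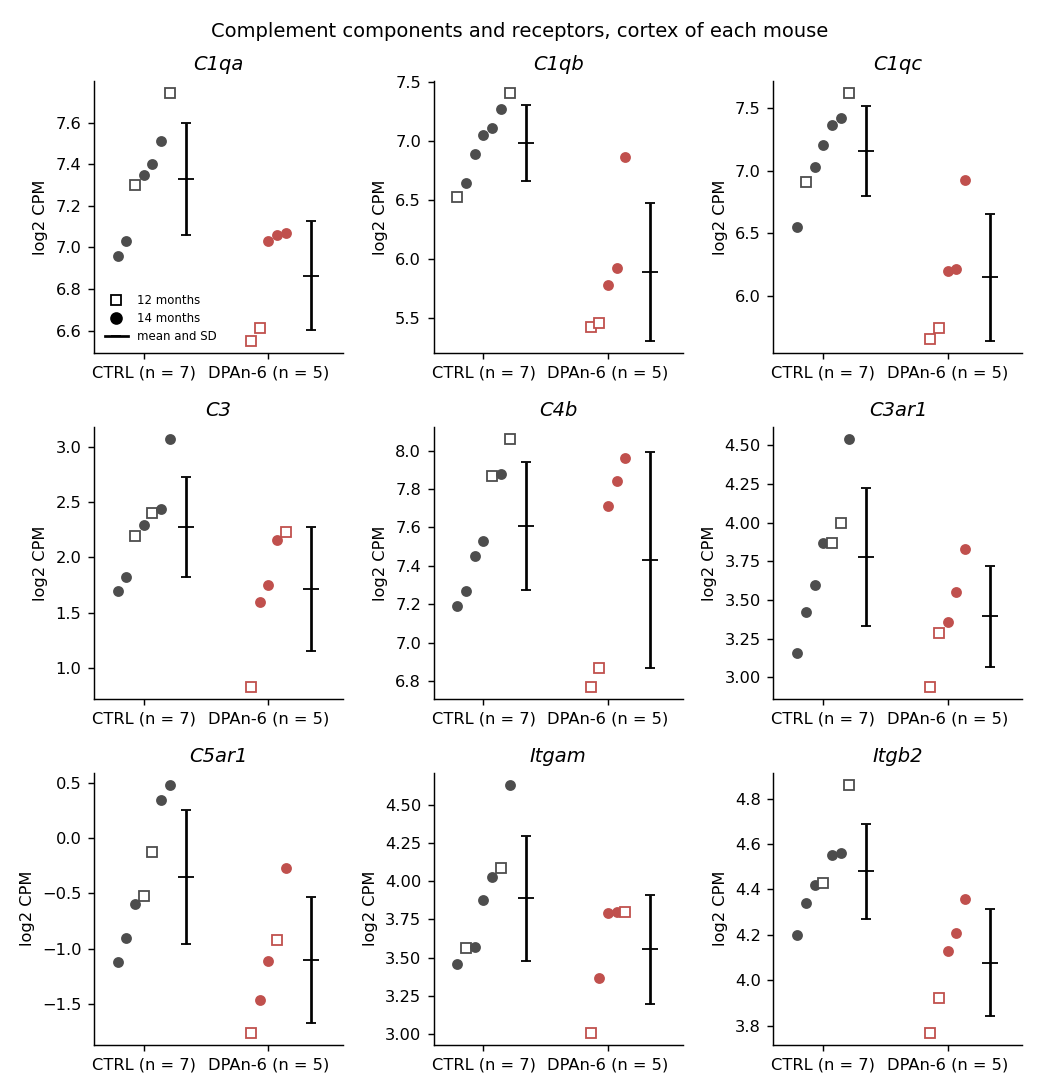
Level of each of the 9 genes in log2 CPM (vertical axis) in every mouse, CTRL in grey and DPAn-6 in red, with open squares for 12 months and filled circles for 14 months; the bar beside each group gives its mean and SD. In C1qb and C1qc 4 of 5 DPAn-6 mice lie below all CTRL mice, and 1 lies among them.

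C1qb, the gene for the B chain of C1q, fell to 0.495-fold of its CTRL level. It had between 6.52 and 7.4 log2 CPM in CTRL mice, with a median of 7.05. DPAn-6 replicates 1 to 5 had 5.92, 5.78, 5.42, 5.46 and 6.86. Replicates 1 to 4 were thus below every CTRL mouse, whereas replicate 5 was inside the CTRL range. The log2 fold change was -1.02 (SE 0.23, 95% interval -1.51 to -0.52, edgeR adjusted p = 0.043).

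C1qc, the gene for the C chain, split the mice in the same way. CTRL values ran from 6.55 to 7.62 log2 CPM with a median of 7.21. The DPAn-6 mice had 6.2, 6.21, 5.65, 5.74 and 6.93, again with replicate 5 inside the CTRL range and the other 4 mice below all CTRL mice. The log2 fold change was -0.97 (SE 0.22, 95% interval -1.43 to -0.51, edgeR adjusted p = 0.0389), or 0.511-fold. By an exact permutation test of the log2 CPM values (two-sided, over the 792 possible splits into 7 and 5 mice, smallest possible p = 0.00126), C1qb gave p = 0.00379 and C1qc p = 0.00505.

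These calls depended on single libraries. Leaving out any 1 of CTRL replicates 1, 2, 4, 5 and 6 or of DPAn-6 replicates 1 to 4 ended both calls. The log2 fold change without them ranged from -1.06 to -0.89 for C1qb and from -0.99 to -0.85 for C1qc, and the edgeR adjusted p from 0.0537 to 0.147. Without DPAn-6 replicate 5, in contrast, C1qb stood at -1.34 and C1qc at -1.21, both called. With age as a covariate both stayed called, C1qb at -1.02 (edgeR adjusted p = 0.0445) and C1qc at -0.98 (adjusted p = 0.0455). Among the 14-month mice alone, 5 CTRL and 3 DPAn-6, the differences were -0.72 and -0.64 with edgeR adjusted p = 0.39 and 0.418, and with the level of Ttr as a covariate they were -0.85 and -0.91 with adjusted p = 0.469 and 0.36. Ttr itself ran from 2.59 to 10.6 log2 CPM in CTRL mice and from 0.85 to 3.86 in DPAn-6 mice, so this covariate overlaps with treatment. With it, the calls over all genes went from 243 to 17. Whether choroid plexus tissue in the dissection had a part in these results was not tested beyond that covariate.

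The 3 C1q genes lie side by side on the minus strand of chromosome 4 in GRCm38. C1qb spans 136880129 to 136886187, C1qc 136889804 to 136893065 and C1qa 136895917 to 136898803, each with 3 exons. As C1qb and C1qc were the members called and moved together across mice, their start regions are shown here as RefSeq gives them on GRCm38.p6, 250 bases before to 50 after the gene start, 5′ to 3′ along the gene. C1qb is at chr4:136886151-136886450 and C1qc at chr4:136892865-136893164, both on the minus strand. The RefSeq starts differ from the ends of the gene spans given above, and that of C1qc lies inside its span. All distances below are counted from the RefSeq starts. Capitals mark matches to 2 core sequences bound by PU.1, a transcription factor of the macrophage lineage: AGGAAGT and GAGGAA, searched on both strands.
C1qb: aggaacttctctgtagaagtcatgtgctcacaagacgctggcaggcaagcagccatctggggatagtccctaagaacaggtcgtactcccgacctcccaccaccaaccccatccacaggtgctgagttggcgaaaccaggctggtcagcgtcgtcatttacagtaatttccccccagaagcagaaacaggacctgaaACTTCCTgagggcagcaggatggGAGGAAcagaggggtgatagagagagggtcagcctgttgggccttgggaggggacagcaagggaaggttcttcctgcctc
C1qc: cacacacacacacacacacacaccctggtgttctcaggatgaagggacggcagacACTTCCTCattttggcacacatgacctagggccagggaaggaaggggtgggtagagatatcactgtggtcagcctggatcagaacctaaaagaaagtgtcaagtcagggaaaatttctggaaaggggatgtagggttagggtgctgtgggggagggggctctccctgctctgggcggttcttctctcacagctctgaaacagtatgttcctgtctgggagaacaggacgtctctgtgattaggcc
The C1qb region held AGGAAGT on the reverse strand starting 53 bases before the gene start and GAGGAA on the forward strand 30 bases before it. In the C1qc region the matches overlapped, with AGGAAGT at 195 bases and GAGGAA at 193 bases before the start, both on the reverse strand. Of 32851 mouse start regions of this length, 9.35% held AGGAAGT and 28.3% held GAGGAA, so these matches are a description of the windows and no more. Start regions were matched for 6 of the 9 members: C1qb, C1qc, C3, C3ar1, C5ar1 and Itgam. AGGAAGT was in 3 of the 6 (also C5ar1, at 2 positions) and GAGGAA in 3 (also Itgam, at 3 positions). A C/EBP core, TTNNGCAA, occurred in C3 alone and in 10.8% of all regions. An interferon response core, GAAANNGAA, occurred in C5ar1 alone and in 8.56% of all regions. The NF-kB core GGANTTTCC, found in 1.25% of all regions, and the STAT core TTCNNNGAA, found in 8.3%, were in none of the 6.

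C1qa, the gene for the A chain, had a smaller fold change than its neighbours. It ran from 6.96 to 7.74 log2 CPM in CTRL mice with a median of 7.35. The DPAn-6 mice had 7.03, 7.06, 6.55, 6.61 and 7.07, so that 2 of them were below every CTRL mouse and all 5 were below the CTRL mean. The log2 fold change was -0.46 (SE 0.14, 95% interval -0.75 to -0.17, p = 0.00408 unadjusted and 0.111 adjusted in edgeR), and the exact permutation p was 0.0202. It was called in DESeq2 (adjusted p = 0.0362) and, at a log2 fold change of -0.52, without CTRL replicate 3 (edgeR adjusted p = 0.017).

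Since the C1q protein holds its chains in equal numbers, the ratios between their messages were compared in each mouse, per exon length. The log2 ratio of C1qa to C1qb was 0.41 ± 0.23 in CTRL mice (SD, n = 7, range 0.14 to 0.85). It was 1.18, 1.35, 1.2, 1.22 and 0.28 in DPAn-6 replicates 1 to 5. The ratio of C1qa to C1qc followed the same split, with 0.9 to 1.31 in CTRL mice against 1.73, 1.74, 1.79, 1.76 and 1.03 in the DPAn-6 mice. Thus 4 of 5 treated mice had more C1qa relative to either partner than any CTRL mouse had, and replicate 5 was among the CTRL mice in both ratios. The group differences were 0.63 for C1qa against C1qb (exact permutation test, two-sided p = 0.0139) and 0.55 for C1qa against C1qc (exact p = 0.00505). These are unadjusted values from 3 ratios. After length and GC content were regressed out of each library, the differences were 0.63 and 0.54. The ratio of C1qb to C1qc, 0.65 ± 0.25 in CTRL and 0.57 ± 0.13 in DPAn-6 mice, differed by -0.08 (exact p = 0.59), less than the spread between mice.

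**Figure D2:**
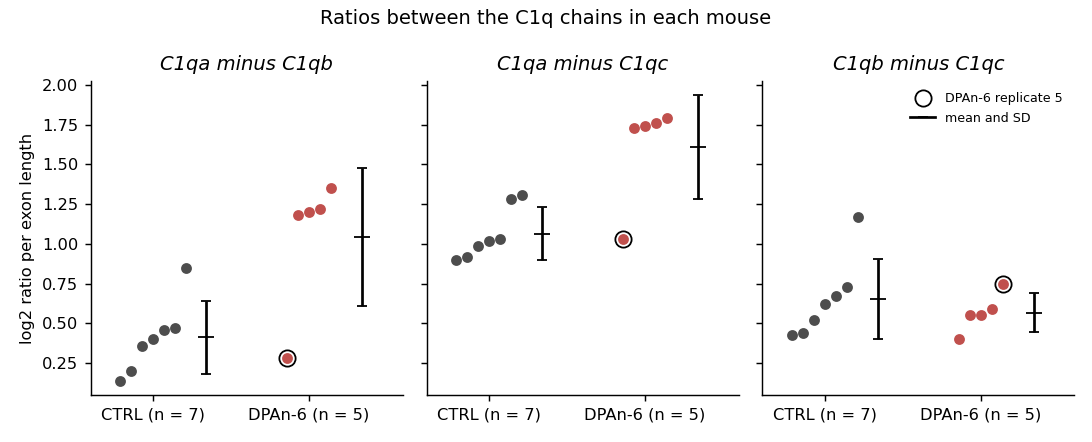
Log2 ratio per exon length between the messages of the C1q chains (vertical axis) in each CTRL mouse (grey) and DPAn-6 mouse (red), with mean and SD beside each group. Black rings mark DPAn-6 replicate 5, which lies at 0.28 and 1.03 in the first 2 panels, while the other treated mice lie at 1.18 to 1.35 and at 1.73 to 1.79.

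Of the central components, C3 was low in the cortex of both groups. C3, the hub on which all pathways of complement converge, had 1.7 to 3.07 log2 CPM in CTRL mice with a median of 2.29. The DPAn-6 mice had 1.6, 2.16, 0.83, 2.23 and 1.75. The groups overlapped, and all 5 treated mice were below the CTRL mean. The log2 fold change was -0.55 (SE 0.25, 95% interval -1.08 to -0.01, edgeR adjusted p = 0.336).

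C4b, the mouse gene for the classical pathway component C4, which astrocytes and oligodendrocytes also express, did not differ detectably in the comparison over all mice. Its CTRL values ran from 7.19 to 8.06 log2 CPM with a median of 7.53. The DPAn-6 mice fell into a high set, with 7.71, 7.96 and 7.84 in replicates 1, 2 and 5, and a low set, with 6.77 and 6.87 in replicates 3 and 4. The log2 fold change was -0.13 (SE 0.21, 95% interval -0.58 to 0.33, edgeR adjusted p = 0.851), and it was 0.37 among the 14-month mice alone (adjusted p = 0.477). Its near-identical neighbour C4a had 7 to 37 counts per library, and reads that match both genes may be missing from either.

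C3ar1, the receptor for the C3a peptide, ranged from 3.16 to 4.54 log2 CPM in CTRL mice (median 3.87), with the highest value in CTRL replicate 3. The DPAn-6 mice had 3.55, 3.83, 2.94, 3.29 and 3.36, within or just below that range. Its log2 fold change was -0.41 (SE 0.21, 95% interval -0.85 to 0.03, edgeR adjusted p = 0.384). C5ar1, the receptor for C5a, had 8 to 20 counts in CTRL libraries and 15, 6, 10, 4 and 12 counts in DPAn-6 libraries. Its log2 fold change was -0.75, with the widest interval of the 9 genes (-1.48 to -0.01, edgeR adjusted p = 0.332). At these counts a difference of this size was not detectable after adjustment.

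Itgb2, the beta chain shared by complement receptor 3 and the other leukocyte integrins, had 4.2 to 4.86 log2 CPM in CTRL mice with a median of 4.43. The DPAn-6 mice had 4.21, 4.36, 3.77, 3.92 and 4.13, 3 of them below every CTRL mouse. Its log2 fold change of -0.4 was among the better determined of the set (SE 0.12, 95% interval -0.66 to -0.14, p = 0.00514 unadjusted and 0.125 adjusted in edgeR, exact permutation p = 0.0114). DESeq2 called it, with adjusted p = 0.0457. Itgam, the alpha chain that makes the receptor specific for C3 fragments, ran from 3.46 to 4.63 in CTRL mice (median 3.88). It was at 3.79, 3.8, 3.01, 3.8 and 3.37 in the treated mice, and its log2 fold change was -0.35 (SE 0.2, 95% interval -0.78 to 0.07, edgeR adjusted p = 0.453). Itgam shares 3450 of its 5024 exon bases with the annotated gene Gm49368 on the same strand, which had a count of 0 in every library, so reads from the shared exons may be missing from the Itgam count.

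Itgb2 also pairs with other alpha chains. Itgax, the alpha chain of complement receptor 4 and a marker of plaque-associated microglia, fell as well. It had 5.06 to 5.98 log2 CPM in CTRL mice and 4.53, 4.57, 4.1, 4.59 and 4.52 in DPAn-6 mice, with no overlap between groups. Its log2 fold change was -1.05 (SE 0.16, 95% interval -1.39 to -0.71, edgeR adjusted p = 0.00551), and it stayed called when any 1 mouse was left out. The call was lost among the 14-month mice alone, where the log2 fold change of Itgax was -0.94 (edgeR adjusted p = 0.0963), and with Ttr as a covariate, at -1.15 (adjusted p = 0.0708). Itgal, the alpha chain of the integrin LFA-1, was at a log2 fold change of -0.51 (edgeR adjusted p = 0.199), and Itgad, with 0 to 7 counts, was not tested.

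Of 52 further complement genes, 29 passed the filter. Of these 3 fell (Itgax, Serping1 and Colec12), beside 1.14% of all genes tested, and none rose. At an unadjusted p below 0.05 in edgeR 7 were lower, beside 9.02% of all genes. The median log2 fold change of the 29 was -0.07, beside -0.0047 over all genes tested. Serping1, the C1 inhibitor, which blocks the proteases attached to C1q, fell with a log2 fold change of -0.76 (SE 0.18, edgeR adjusted p = 0.045). Colec12, a scavenger receptor of the collectin family, fell with -0.67 (SE 0.14, adjusted p = 0.0277). In each of these 3 genes all 5 DPAn-6 mice lay below all 7 CTRL mice. They also did so in Csmd1, a membrane inhibitor of complement on neurons, at -0.25 (edgeR adjusted p = 0.1). Of all genes tested, 1.8% showed this separation. The calls of Serping1 and Colec12 were lost when single mice were left out (10 and 7 of 12 omissions, with edgeR adjusted p up to 0.142 and 0.105).

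By role, none of the 6 tested proteases and C4a passed (median -0.06, from C1rl at -0.28 to Masp1 at 0.02). They include C1ra and C1s1, whose proteases attach to C1q, at -0.07 and -0.05 with adjusted p = 0.911 and 0.949. Of 3 soluble regulators all had negative fold changes, with Clu (clusterin) at -0.24 (adjusted p = 0.212) and Vtn (vitronectin) at -0.1. Among 11 membrane regulators 5 were lower and 6 higher, with a median of 0.0, from Cd55 (decay-accelerating factor) at -0.5 to Sez6l2 at 0.2, and none passed. The neuronal gene Sez6 was at 0.16 with an unadjusted p of 0.0232 (edgeR adjusted p = 0.25). The other 23 genes had at most 16 counts in any library and were not tested. Among them were the lectin pathway recognition genes other than Colec12, the alternative pathway genes Cfb and Cfd, and the terminal components C5 (listed as Hc), C6, C8a, C8b and C9. The terminal components that were tested, C7 and C8g, stood at -0.0 and -0.3 with adjusted p = 0.998 and 0.711.

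**Figure D3:**
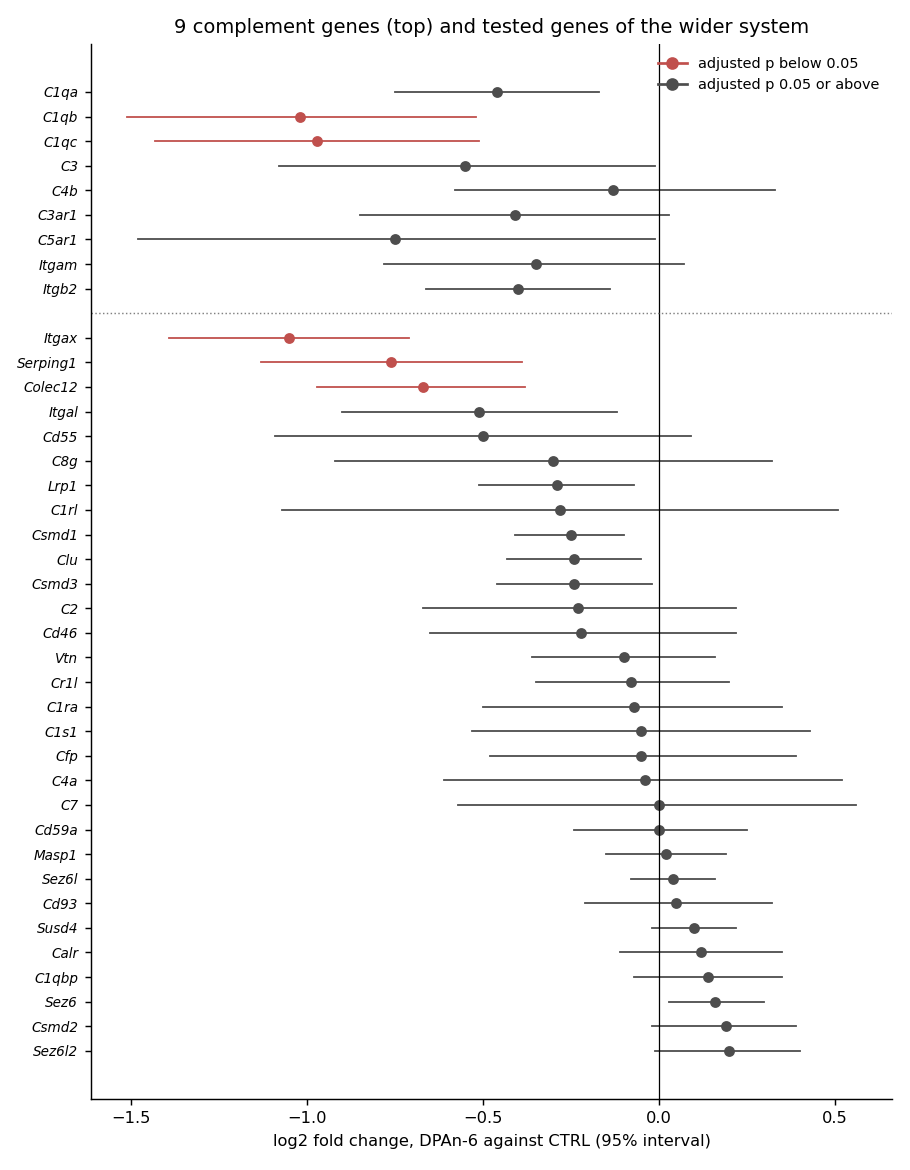
Log2 fold change of DPAn-6 against CTRL with its 95% interval (horizontal axis) for the 9 complement genes (above the dotted line) and for the 30 tested genes of the wider complement system and beta2 integrins (below it). Red marks adjusted p below 0.05; the called genes are C1qb and C1qc above the line and Itgax, Serping1 and Colec12 below it, each with a negative fold change.

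Markers of the cells that make C1q had negative fold changes as well. Over the 15688 genes tested, 8048 had negative fold changes and 1.14% were called lower. All 12 homeostatic microglial markers were below 0 on the log2 scale, 4 of them called (median -0.48, from Olfml3 at -1.19 to Cx3cr1 at -0.05). Their summed level was 9.79 to 10.31 log2 CPM in CTRL and 9.37 to 9.74 in DPAn-6 mice. Of 15 markers of disease-associated microglia 12 were lower and 5 called (median -0.5, from Spp1 at -2.16 to Cd63 at 0.12). All 6 tested markers of border macrophages were lower, 3 of them called (median -1.11; summed level 5.15 to 5.68 in CTRL and 4.55 to 5.02 in DPAn-6 mice), as were all 8 markers of meningeal fibroblasts, 4 of them called (median -0.68; 7.09 to 8.09 and 6.34 to 7.33). None of the 10 neutrophil and monocyte markers passed the filter, with at most 50 counts for any of them. Astrocyte, reactive astrocyte, endothelial and red cell markers had medians of -0.18, 0.09, -0.06 and -0.21 with none called. Oligodendrocyte and neuronal markers had medians of 0.27 and 0.11 with none called, and 10 interferon-response genes had a median of -0.13 with none called. All 6 tested choroid plexus genes were lower with none called (median -2.76; summed level 3.79 to 10.77 in CTRL and 3.03 to 4.61 in DPAn-6 mice). At an unadjusted p below 0.05 in edgeR, 6 of the 10 oligodendrocyte markers were higher and 0 lower. At that threshold 4 of the 10 astrocyte markers and all 6 tested choroid plexus genes were lower, with 0 higher. Of the neuronal markers, 2 were higher and 1 lower. Of the 15688 genes tested, 865 were higher and 1415 lower at that threshold. The part of each of these cell types in the complement results was not tested.

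Each member was therefore also expressed relative to the mean log2 CPM of the 12 homeostatic microglial markers in the same mouse. On this relative scale most of the differences were near 0. C1qa differed by 0.02 (exact permutation test, two-sided p = 0.862), Itgb2 by 0.08 (exact p = 0.287), C3ar1 by 0.1 (exact p = 0.573), Itgam by 0.15 (exact p = 0.386), C3 by -0.07 (exact p = 0.74) and C5ar1 by -0.27 (exact p = 0.429). C1qb was at 0.54 ± 0.56 against 1.15 ± 0.24 (SD, n = 5 and 7), a difference of -0.61 (exact p = 0.0316, unadjusted, as for all 9 genes on this scale), with 4 of 5 treated mice below the CTRL mean. C1qc was at 0.8 ± 0.47 against 1.32 ± 0.35, a difference of -0.53 (exact p = 0.0593). C4b was higher by 0.31 (exact p = 0.208). Against the disease-associated markers C1qb was at -0.45 (exact p = 0.0732), C1qa at 0.18 (exact p = 0.0417), C4b at 0.47 (exact p = 0.0366) and Itgb2 at 0.24 (exact p = 0.0215). Both marker lists had negative median log2 fold changes (-0.48 and -0.5), so a positive value here does not mean a higher level. The fold changes of C1qa, C4b and Itgb2 themselves were -0.46, -0.13 and -0.4. As other cells also express C4b, its ratio to microglial markers is not a microglial level. For comparison, Itgax relative to the homeostatic markers differed by -0.54 (exact p = 0.0114), with all 5 treated mice below the CTRL mean.

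**Figure D4:**
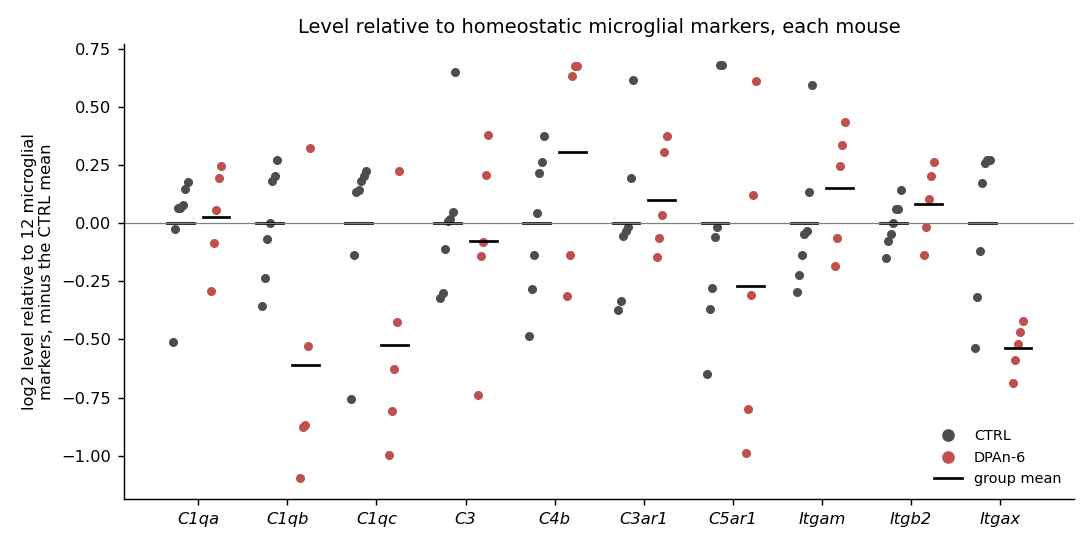
Log2 level of each gene relative to the mean of 12 homeostatic microglial markers in the same mouse, minus the CTRL mean (vertical axis), for CTRL (grey) and DPAn-6 (red) mice, with black bars for group means. The group means differ by -0.61 for C1qb, -0.53 for C1qc and -0.54 for Itgax, and by -0.27 to 0.31 for the others.

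The C1q chains varied together across the 12 mice. Of 36 pairs of members, 12 had a Pearson correlation with adjusted p below 0.05 (100000 permutations, Benjamini-Hochberg over the 36 pairs), and 9 did after each group was centred on its mean. C1qb and C1qc gave r = 0.957 (permutation p = 1e-05, the smallest the permutations can give; adjusted p = 0.00018) and rho = 0.937 (permutation p = 2e-05), with r = 0.883 after centring and r = 0.909 without the 2 mice farthest from the median. C3 and Itgam gave r = 0.901 (permutation p = 0.00042, adjusted p = 0.00302) and rho = 0.832 (permutation p = 0.00132), with r = 0.678 without CTRL replicate 3 and DPAn-6 replicate 3. C1qa and C4b gave r = 0.755 (permutation p = 0.00427, adjusted p = 0.014) and rho = 0.727 (permutation p = 0.00936), with r = 0.561 without the 2 farthest mice. Itgam and its partner Itgb2 gave r = 0.646 (permutation p = 0.0244, adjusted p = 0.0629) and rho = 0.636 (permutation p = 0.0306), with r = 0.451 after the 2 farthest mice were left out. Without DPAn-6 replicate 3 the count of pairs was 6 in place of 12.

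As a description with no test, the genes closest to each member over the 12 group-centred mice were named. For C1qa these were Ctsd, Ctsz and Hadh, at r = 0.988, 0.974 and 0.964, the first 2 being lysosomal cathepsins. C1qb and C1qc had each other among their 3 closest genes (r = 0.883). C1qb was closest to Frmpd2 (0.887), and C1qc to Tbxas1, thromboxane synthase (0.91). C4b was closest to Ctsa, Cd14 and Wdfy4 (0.949, 0.942 and 0.934). C3 was closest to Il1a, the cytokine interleukin-1 alpha (0.969), C3ar1 to Pinx1 and Lcp1 (0.969 and 0.947) and C5ar1 to Bgn (0.873). Itgam was closest to Ikzf1, a lymphoid and myeloid transcription factor (0.948), and Itgb2 to Siglec1, a macrophage sialic acid receptor (0.95). These points share libraries and depth.

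Age was tested in a model with treatment. None of the 9 members passed at 14 against 12 months, adjusted or unadjusted, where 1.78% of all genes had an unadjusted p below 0.05 in edgeR. No gene at all had an adjusted p below 0.05 in edgeR, DESeq2 or limma-voom (279, 287 and 267 genes at an unadjusted p below 0.05). The members' log2 fold changes with age lay between 0.03 for Itgb2 and 0.35 for C1qb.

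The difference between treatment effects at the 2 ages was tested as an interaction. It had an unadjusted p below 0.05 in 4 of 9 members (C4b, C1qa, C1qc and Itgb2), against 4.26% of all genes, and none passed after adjustment in edgeR. C4b had the lowest p. The 12-month CTRL mice had 7.87 and 8.06 log2 CPM and the 12-month DPAn-6 mice 6.77 and 6.87, a difference of -1.15. At 14 months CTRL mice had 7.19 to 7.88 and DPAn-6 mice 7.71 to 7.96, a difference of 0.37. The log2 interaction was 1.5 (SE 0.23, edgeR adjusted p = 0.177, unadjusted 2.26e-05). DESeq2 called it (adjusted p = 1.83e-05), as did edgeR without CTRL replicate 2 (adjusted p = 0.0113) or without CTRL replicate 3 (adjusted p = 0.00676). C1qa, C1qc and Itgb2 showed interactions of 0.75, 0.95 and 0.63 (edgeR unadjusted p = 0.00584, 0.0254 and 0.011, each with adjusted p = 0.905). In all 4 genes, and in C1qb (5.42 and 5.46 log2 CPM), the DPAn-6 mice of 12 months were the lowest of the 12 mice. The treatment difference was more negative at 12 than at 14 months in all 9 members, and also in Serping1, Colec12 and Itgax.

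Age and the X-inactivation transcript Xist, which is expressed from an inactive X chromosome, were not balanced. Both 12-month CTRL libraries had high Xist (9.41 and 9.65 log2 CPM) and both 12-month DPAn-6 libraries had low Xist (2.07 and 1.48). Among 14-month mice Xist was high in all 3 DPAn-6 libraries (9.12 to 9.59) and in 2 of 5 CTRL libraries. At 12 months the treatment difference and the Xist difference therefore cannot be told apart. With Xist as a continuous covariate the interaction of C4b was 1.27 (edgeR adjusted p = 0.23, unadjusted 0.00246). In a model with treatment, the members' coefficients were 0.02 to 0.1 per log2 unit of Xist and none passed after adjustment. Of the 9, 5 (C4b, C3ar1, C5ar1, Itgam and Itgb2) had an unadjusted p below 0.05, against 5.41% of all genes. The coefficient of C4b was 0.07 (edgeR adjusted p = 0.555, unadjusted 0.00199), and without CTRL replicate 3 it was 0.09 and called (adjusted p = 0.00245). With Xist as a covariate in the comparison of DPAn-6 against CTRL, C1qb and C1qc were called as before.

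**Figure D5:**
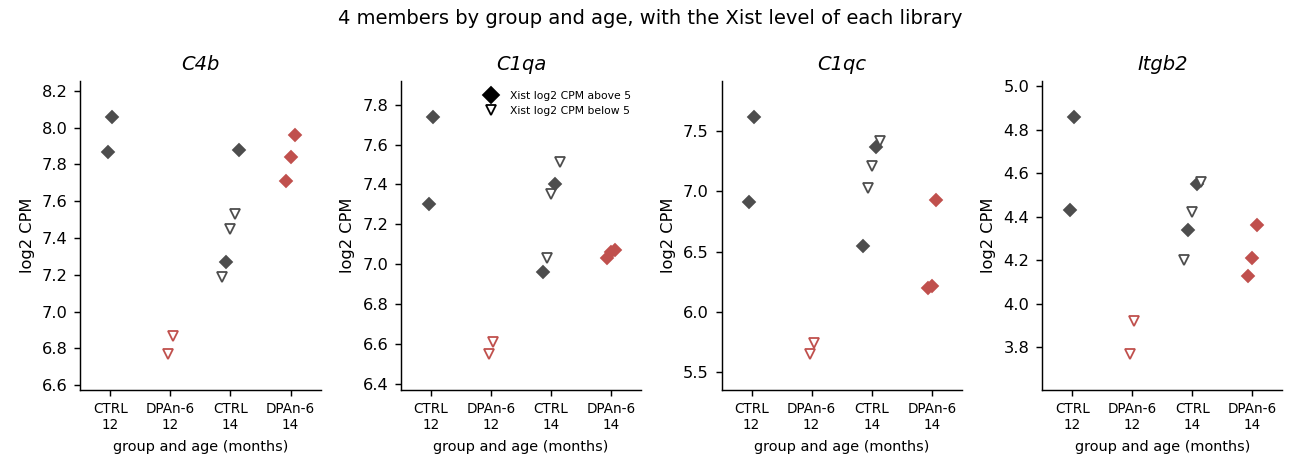
Log2 CPM (vertical axis) of C4b, C1qa, C1qc and Itgb2 in each mouse by group and age in months, grey for CTRL and red for DPAn-6; filled diamonds have Xist above and open triangles below 5 log2 CPM. The 2 DPAn-6 mice of 12 months are the lowest in each panel, and both are open triangles, whereas both CTRL mice of 12 months are filled.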

How the data were processed

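Total RNA from cortex was turned into poly(A) libraries (KAPA mRNA) and sequenced on a HiSeq3000 by the authors. Per the submitters' notes, reads were aligned with STAR 2.5.3a to GRCm38 (mm10), and the authors deposited whole-number read counts per Ensembl gene as STAR's gene counting gives them. That counting drops reads that match several genes. The strand setting is not given in the sources used here. No column was left without a sample.

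From the counts, edgeR 4.0.16 in R 4.3.3 was used with TMM factors, filterByExpr and quasi-likelihood tests on all 12 mice, adjusted by Benjamini-Hochberg over 15688 genes. Log2 CPM carried a pseudocount of 0.5 counts. The interval of a fold change came from its quasi-likelihood F. Exact permutation tests compared absolute differences of group means over all 792 splits. DESeq2 1.42.0 and limma 3.58.1 (voom) were alternatives. The paper names voom for differential expression, and it chose its treatment-affected genes by a two-tailed t-test at p below 0.05. Symbols and exon lengths came from GENCODE M21, which matched 50339 genes. Tests were checked on simulated counts.

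The members, lists and tests were chosen with earlier results of these data known. Named besides the 9 members were the tested genes of a wider complement list and beta2 integrins, the extremes of marker lists, the 3 genes most correlated with each member, Xist and Ttr. A gene of the wider list is not reported here and was left out of its counts. The test of Xist, and leaving out CTRL replicate 3 and DPAn-6 replicate 5 together, were added after seeing the data.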

Additional observations from a re-analysis of the deposited data

Results flagged for a closer look

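Within groups, 24 sets of values (9 levels and 3 ratios in each group) were examined for a mouse far from the others, and chance alone flags about 1 in 20 such sets. DPAn-6 replicate 5 was far below the other treated mice in the log2 ratio of C1qa to C1qb, at 0.28 (gap of 0.842 of the range), and in that of C1qa to C1qc, at 1.03 (gap of 0.921 of the range). It was the deepest library, with 26520251 counts, and carried C1qb and C1qc at CTRL levels. CTRL replicate 3, the library that stood apart on the first principal component, had the highest log2 ratio of C1qb to C1qc among CTRL mice, at 1.17 (gap of 0.601 of the range). Neither library's part in these ratios was tested further than by leaving it out.

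The interaction of age and treatment had an unadjusted p below 0.05 in edgeR in 4 members, beside 4.26% of all genes tested. It was 1.5 for C4b, 0.95 for C1qc, 0.75 for C1qa and 0.63 for Itgb2 on the log2 scale. In each the treatment difference was more negative at 12 than at 14 months, as it was in every other member. None of the 4 passed after adjustment over all genes (adjusted p = 0.177 for C4b and 0.905 for the other 3). At 12 months there were 2 mice per group, and the groups also differed in Xist, so treatment and Xist cannot be told apart at that age.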

How the results depend on the processing

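The negative direction held for C1qa, C1qb, C1qc, C3, C3ar1, C5ar1, Itgam and Itgb2 under every alternative run, and C4b turned to 0.37 among the 14-month mice, in the model and by exact test. Members called in place of 2 numbered 4 in DESeq2 and in limma-voom with sample weights, 1 with library totals without TMM (C1qc), and 0 with Ttr as covariate, in 14-month mice only or with the replicate block. All genes called in place of 243 numbered 695 in DESeq2, 1267 with sample weights, 17 with Ttr, 9 at 14 months, 79 with the replicate block, 546 with the length and GC trend removed, and 675 and 1214 without CTRL replicate 3 and DPAn-6 replicate 5, the latter with the trend removed. Wider complement genes called in place of 3 numbered 6 with sample weights, 0 with Ttr, 0 at 14 months, 1 with the replicate block, 1 with the block and the trend removed, and 6 without both libraries and the trend. The labels do not say whether the replicate numbers pair mice. Same-numbered mice deviated from their group means with r of -0.125 to 0.22, and 1 of 10 correlated best with its own number. Whether the numbers stand for a pairing was not tested further. Without 1 mouse at a time, calls ranged over 0 to 3 members, 64 (without DPAn-6 replicate 3) to 953 (without CTRL replicate 3) genes and 1 to 6 wider genes. C4b then ranged over -0.26 to 0.02, and its exact difference over -0.31 to -0.01.

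By exact permutation test 4 members had p below 0.05, 1 of them (C1qb) at 14 months, and 4 to 7 without 1 mouse. The share of all genes tested with an exact p below 0.05 was not computed, so these counts have no background beside them. Relative to microglial markers 1 member had an exact p below 0.05, C1qb, which was lower. With disease-associated markers 3 others did, C1qa, C4b and Itgb2, and C1qb did not (exact p = 0.0732). Each of the 3 was higher only relative to these markers, whose median log2 fold change was -0.5. The count was 2 with both lists, 2 at 14 months and 0 to 2 without 1 mouse. C1qb lost its p below 0.05 in 2 of 4 other settings and in 6 of 12 omissions. On that relative scale C3 turned to 0.09 and 0.02 with the other references. Without 1 mouse it ranged over -0.19 to 0.09, and C1qa over -0.06 to 0.1. Of the 3 C1q ratios 2 passed, but 1 at 14 months, and 2 without any 1 mouse, with C1qb to C1qc ranging over -0.13 to 0.0. Correlated pairs fell from 12 to 0 at 14 months, and ranged over 6 to 15 without 1 mouse. The age effect of C1qb was -0.02 and of Itgb2 -0.24 in CTRL mice only, and that of Itgb2 -0.06 to 0.22 without 1 mouse. Members called in the interaction numbered 1 (C4b) in DESeq2 and with the trend removed, and 0 to 1 without 1 mouse. With Xist as covariate the interaction turned to -0.83 for C3, -0.12 for C3ar1, -1.35 for C5ar1 and -0.89 for Itgam, and without 1 mouse it ranged over -0.4 to 0.98 for C3, -0.05 to 0.93 for C5ar1 and -0.24 to 0.53 for Itgam. Members called for Xist ranged over 0 to 1. The cause of these changes was not tested. Depth limits C5ar1, with 4 to 20 counts.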
